A study of Mus musculus with 4 samples.

Results

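The 34 genes described here are imprinted genes of the mouse, chosen by name from 17 clusters, out of 53843 genes annotated on the autosomes and X. Of them, 28 are protein-coding and 6 noncoding; 13 are usually active from the maternal allele and 21 from the paternal allele. All were found in the annotation. Their control regions, with the enhancer interval downstream of H19, were added as 19 windows placed by distance from an annotated start.

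Imprinted genes are expressed mainly from the allele inherited from one parent. Each cluster is governed by a control region whose DNA is methylated on one parental allele in the germline, and that methylation is kept through later cell divisions by KRAB zinc finger proteins such as ZFP57, which bind the methylated allele. Some control regions are promoters of noncoding RNAs that silence neighbours in cis, and others carry sites for CTCF, an insulator protein that binds the unmethylated allele. Many of these genes control fetal growth, and several, among them Cdkn1c, H19 and the Dlk1-Meg3 genes, are known in blood stem cells for a role in quiescence.

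The assay was DNase-seq, a map of open chromatin in which the nuclease DNase I cuts accessible DNA in nuclei and the cut ends are sequenced. The cells were mouse acute myeloid leukemia cells of strain C57BL/6J, labelled as differentiated in vitro, with no treatment, time point, age, sex or control given. There were 2 biological replicates of 2 libraries each, from 2 biosamples with 1 donor entry, and the authors pooled the libraries of a replicate into 1 peak list and 1 hotspot list. C57BL/6J is inbred, so the parental alleles cannot be told apart, and a peak may stand for either allele or both.

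Replicate 1 had 236215 distinct peaks and replicate 2 had 67438, and 61768 windows of replicate 1 overlapped a peak of replicate 2; these are called shared. A peak is a window of 150 bp with a whole-number score, whose median was 74 in replicate 1 and 35 in replicate 2. Sequencing depth was unknown, and the sources used here do not say how the score was computed, so scores rank peaks within a list and are not compared between lists. With 1 list per replicate no value has an error, no test was made, and a start without a peak is one that was not called, not one shown to be closed. All 10 myeloid marker genes, among them Spi1 and Cebpa, had a shared peak within 1 kb of a start. Of 16 marker genes of other cell types, 11 had no peak in either list, while Epcam, an epithelial adhesion gene, had a shared peak (99 in replicate 1 and 32 in replicate 2); the part of other cells in any result was not tested.

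The windows shown first, 5′ to 3′, were picked because they hold the CTCF or ZFP57 letters given below. They do not stand for all control region peaks. Peaks in the Kcnq1ot1, Airn, Peg3, Nnat and Zrsr1 promoter windows held neither. The peaks of the IG-DMR and Rasgrf1 windows that are not printed held neither as well. Coordinates are on mm10, sequences are from the mouse reference assembly GRCm38.p6, and capitals mark the matches named.

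The imprinting control region upstream of H19 is an insulator with repeated CTCF sites. The first and second of its windows hold the letters CCGCGNGGNGGC, a CTCF form of this region that was chosen after seeing the data, and are shown on the minus strand, along which H19 is transcribed. The third holds TGCCGC, the ZFP57 letters, on either strand and is shown on the plus strand. The first window also holds TGCCGC on either strand, which is not marked there.
H19 control region, chr7:142580256-142580405, minus strand: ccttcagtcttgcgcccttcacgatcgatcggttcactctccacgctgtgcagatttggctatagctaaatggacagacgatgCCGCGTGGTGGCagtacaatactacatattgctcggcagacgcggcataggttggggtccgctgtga
H19 control region, chr7:142580696-142580845, minus strand: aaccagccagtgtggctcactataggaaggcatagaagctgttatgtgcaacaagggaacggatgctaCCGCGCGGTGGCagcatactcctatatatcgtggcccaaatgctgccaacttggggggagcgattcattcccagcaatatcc
H19 control region, chr7:142581756-142581905, plus strand: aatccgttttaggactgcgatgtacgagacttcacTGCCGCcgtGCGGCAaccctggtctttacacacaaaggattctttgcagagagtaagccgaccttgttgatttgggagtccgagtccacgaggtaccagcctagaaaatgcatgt
The next windows are the strongest shared peaks in the germline-methylated regions upstream of Meg3 (the IG-DMR) and of Rasgrf1, and the peak just upstream of the Gnas exon 1A start, on the plus strand with TGCCGC in capitals.
IG-DMR, chr12:109530316-109530465, plus strand: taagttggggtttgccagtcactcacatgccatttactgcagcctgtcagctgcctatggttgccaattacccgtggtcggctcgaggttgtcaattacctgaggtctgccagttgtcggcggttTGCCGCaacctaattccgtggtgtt
Rasgrf1 region, chr9:89879716-89879865, plus strand: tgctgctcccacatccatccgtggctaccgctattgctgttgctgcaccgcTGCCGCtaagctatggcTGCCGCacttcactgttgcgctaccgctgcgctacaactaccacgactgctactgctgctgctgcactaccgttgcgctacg
Gnas exon 1A, chr2:174327336-174327485, plus strand: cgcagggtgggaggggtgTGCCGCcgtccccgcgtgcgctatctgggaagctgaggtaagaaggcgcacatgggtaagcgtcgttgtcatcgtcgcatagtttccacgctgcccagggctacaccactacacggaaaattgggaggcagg
The last are shared peaks with the general CTCF letters CCNNNAGGNGGC in capitals, inside Meg3 and in an intron of Slc22a18, each on the strand of the match.
Meg3, chr12:109542956-109543105, minus strand: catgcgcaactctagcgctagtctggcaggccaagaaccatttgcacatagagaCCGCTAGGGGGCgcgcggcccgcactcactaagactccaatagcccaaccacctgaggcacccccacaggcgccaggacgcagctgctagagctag
Slc22a18, chr7:143480656-143480805, plus strand: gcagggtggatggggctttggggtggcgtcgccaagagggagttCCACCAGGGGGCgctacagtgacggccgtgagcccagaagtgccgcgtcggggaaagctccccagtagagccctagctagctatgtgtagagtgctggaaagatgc

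Across the genes, 14 of 34 (41.2%) had a shared peak within 1 kb of an annotated start, 9 had a peak in replicate 1 alone, none had one in replicate 2 alone, and 11 had no peak in either list. The 14 were Kcnq1ot1, Cdkn1c, Meg3, Peg3, Usp29, Igf2r, Gnas, Mest, Plagl1, Impact, Nnat, Zrsr1, Inpp5f and H13. Those with replicate 1 peaks alone were Igf2, Kcnq1, Phlda2, Slc22a18, Dlk1, Airn, Peg10, Sgce and Rasgrf1. Those with none were H19, Rtl1, Rian, Mirg, Zim1, Snrpn, Ndn, Magel2, Mkrn3, Grb10 and Mcts2. The genes are not independent: Peg3 and Usp29 shared 1 window, and Peg10 and Sgce shared 4. Both parental classes were split, with 5 of 13 maternally and 9 of 21 paternally expressed genes at a shared peak.

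Set beside all genes, 12 of the 28 coding genes (42.9%) had a shared start peak, against 58.2% of 21755 protein-coding genes. In replicate 1 alone the shares were 71.4% (20 of 28) and 71.1%. The coding members therefore stood at the background in the longer list and below it where both lists were required; that difference was not tested. Among coding genes with a start in CpG-rich sequence (at least 50% GC and an observed to expected CpG ratio of at least 0.6 in the 1 kb around any start), 12 of 22 members (54.5%) and 86.9% of 11235 genes had a shared peak. Of the 6 noncoding members, Kcnq1ot1 and Meg3 had a shared peak and Airn a replicate 1 peak, where 25% of 9603 long noncoding genes had a shared and 42.3% a replicate 1 peak. Hotspots, the wider regions of raised cutting, gave the same count: 14 of 34 members, and 12 of 28 coding ones, had a hotspot of both lists at a start, against 58.9% of coding and 25.7% of long noncoding genes.

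The called starts also ranked lower than the usual coding start. The strongest shared peak of the 14 genes scored 70 to 150 in replicate 1 with a median of 128, and 19 to 110 in replicate 2 with a median of 44.5. Over the 12658 coding genes with a shared start peak the medians were 145 and 75. The 14 genes include the noncoding Kcnq1ot1 and Meg3, and Peg3 and Usp29 count the same window. The 9 genes with replicate 1 peaks alone scored 60 to 119 with a median of 86, above the median of 67 over the 2714 coding genes of that kind. Those 9 include the noncoding Airn, and Peg10 and Sgce count the same window.

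**Figure D1:**
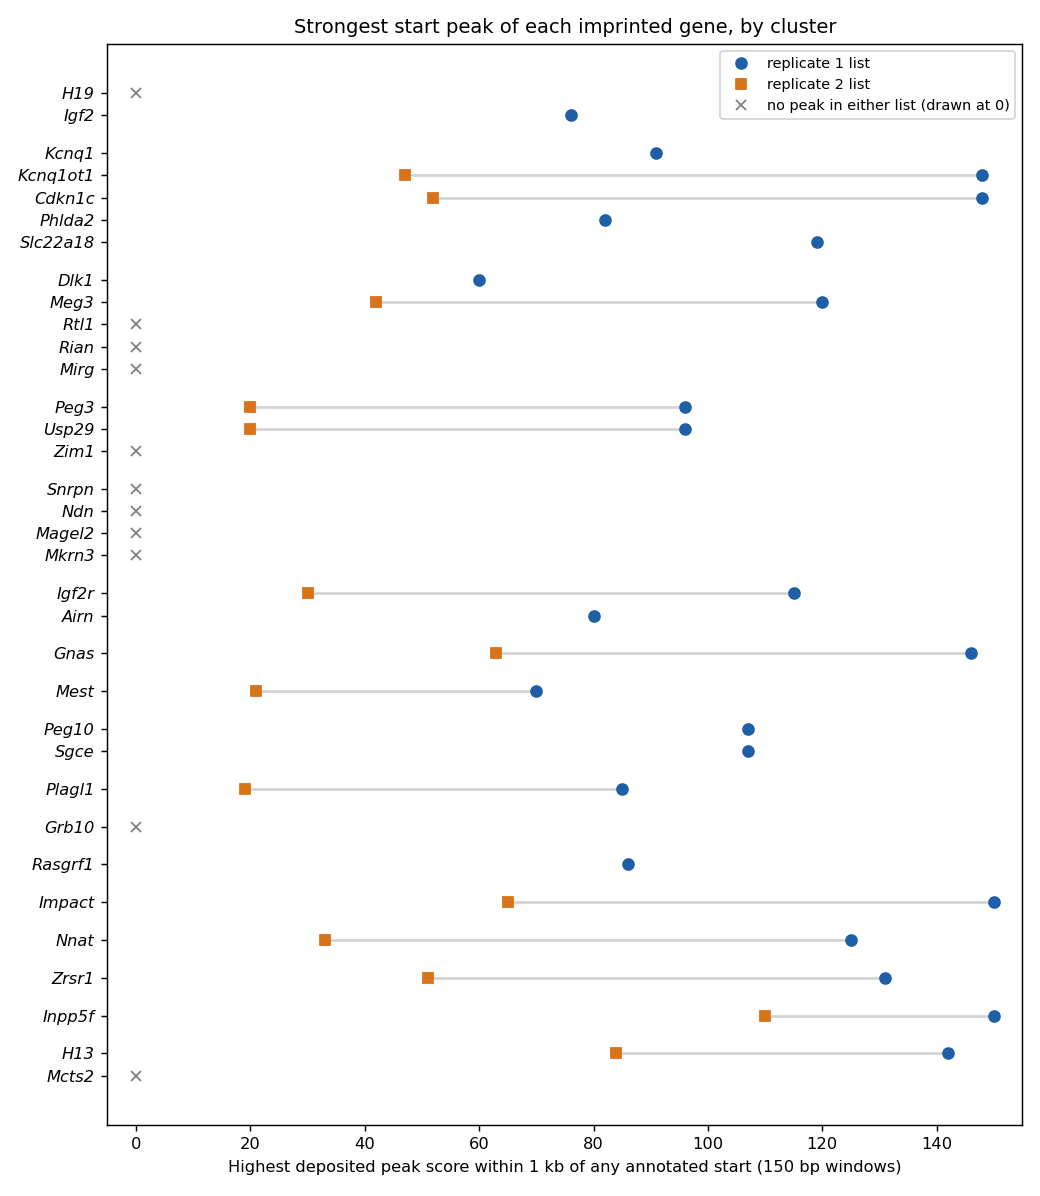
Highest deposited peak score (horizontal axis, no unit) within 1 kb of any annotated start of each of the 34 genes (vertical axis, grouped by cluster), with circles for replicate 1, squares for replicate 2 and crosses for genes with no peak. The highest scores of the lists need not be the same window; Inpp5f reaches 150 and 110, while the 4 genes of the Snrpn region have crosses.

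**Figure D2:**
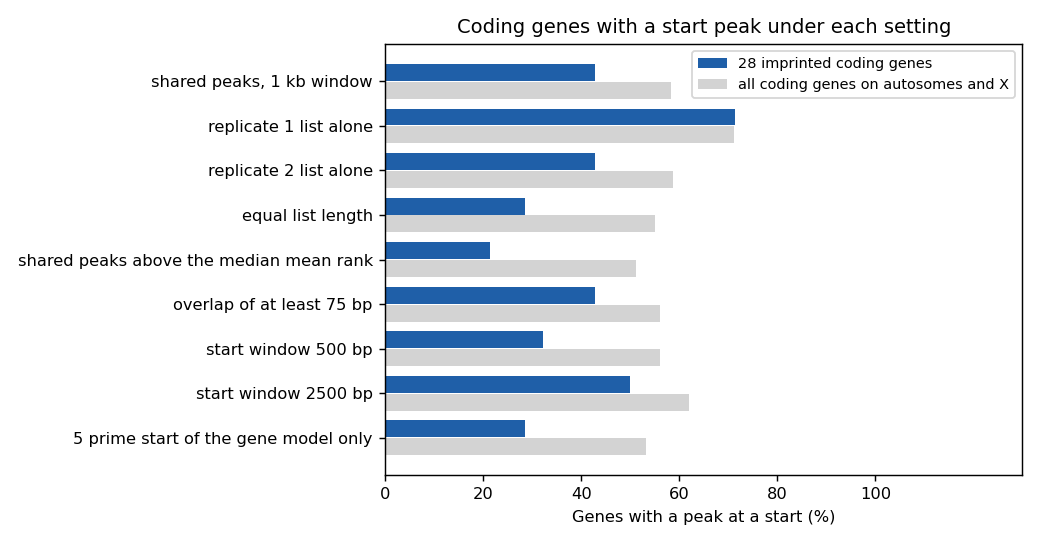
Share of coding genes with a start peak (horizontal axis, percent) under each setting (vertical axis), for the 28 imprinted coding genes and for all coding genes on autosomes and X. The bars are of like length only for the replicate 1 list alone (71.4% and 71.1%).

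The Kcnq1-Cdkn1c cluster on chromosome 7 held the most shared peaks, 19 in 405 kb, of which 16 lay beyond 1 kb of any start. Kcnq1ot1, the paternally expressed RNA that runs antisense through Kcnq1 and silences the cluster, had a shared peak 61 bp from its start (148 in replicate 1, 47 in replicate 2) and another at 459 bp (121 and 22). Its promoter is the control region, and the replicate 1 hotspot over it was 1902 bp wide, wider than 98.0% of that list. Cdkn1c, a cyclin-dependent kinase inhibitor silenced by that RNA, had a shared peak 80 bp from its start (148 and 52). Phlda2, a growth-restraining gene of the placenta, had replicate 1 start peaks of 55, 82 and 58. Slc22a18, a transporter gene, had 4 of them, the highest 119. Kcnq1, a potassium channel gene, had start peaks in replicate 1 alone, scoring 91 and 79 there.

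Between the Cdkn1c start peak and Phlda2 the other shared peaks lay more than 1 kb from any start. A peak 5340 bp from the Cdkn1c start scored 120 and 67. In this stretch 3 shared peaks matched the CTCF letters: chr7:143464016-143464165 (109 and 35) and chr7:143470076-143470225 (107 and 37), both between genes, and the Slc22a18 intron window printed above (103 and 50). On the far side of Phlda2, upstream of its start, peaks at 2880 and 3700 bp scored 117 and 52, and 97 and 44. Inside Kcnq1 itself, intronic peaks reached 143 and 61 at chr7:143154016-143154165. A further intronic peak 17561 bp upstream of the Kcnq1ot1 start scored 133 and 51.

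The Gnas locus on chromosome 2 encodes the stimulatory G protein alpha subunit from one of several alternative first exons, the others being Nesp (maternal), XL (paternal) and the noncoding exon 1A, at the control region that governs Gnas itself. Shared peaks lay at the downstream starts only. The exon 1A starts had 145 and 45 in the window printed above and 146 and 52 beside it. At the Gnas starts, 4 shared peaks scored 134, 130, 120 and 135 in replicate 1 and 29, 44, 33 and 42 in replicate 2, under a replicate 1 hotspot 3255 bp wide (wider than 99.8% of the list). The XL start had 97 in replicate 1 and 26 in replicate 2 in windows that did not overlap, and the Nesp starts had 54 in replicate 1 alone. An internal start near the 3′ end had a shared peak of 143 and 63, with no CpG in its window.

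**Figure D3:**
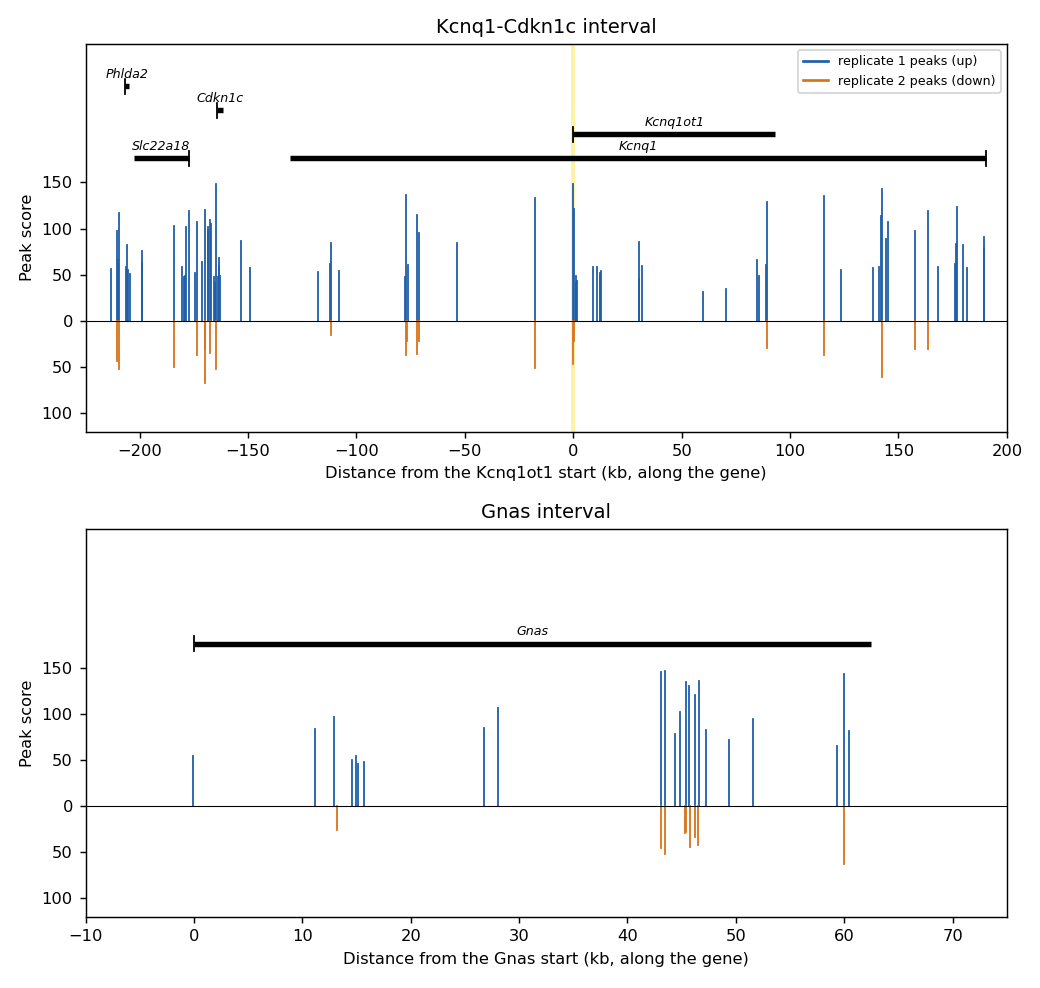
Peak scores (vertical axis; replicate 1 up in blue, replicate 2 down in orange) by distance in kb from the Kcnq1ot1 start and from the first Gnas start along each gene; black bars are genes with a tick at the 5′ end, and the shaded band is the Kcnq1ot1 promoter window. Replicate 2 peaks lie at the Kcnq1ot1 start, within Kcnq1 and around Cdkn1c, and in Gnas all but 1 of the 9 lie in the downstream part.

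In the Dlk1-Meg3 cluster on chromosome 12 peaks of both lists lay in the control region and inside Meg3. The IG-DMR window had 4 replicate 1 peaks, of 118, 122, 143 and 108, and 2 of them were shared, with 35 and 67 in replicate 2. The stronger, printed above, is centred 10.6 kb upstream of the Meg3 start in a replicate 1 hotspot 2907 bp wide (wider than 99.6% of the list); it is also within 1 kb of a start of Gm27528, an unclassified transcript. Meg3, a maternally expressed noncoding RNA, had no peak within 1 kb of its 5′ starts; its shared peak (120 and 42), with the CTCF match, is 762 bp inside an internal start. Dlk1, a paternally expressed transmembrane ligand related to the Notch ligands, had 60 in replicate 1 alone. Rtl1, a retrotransposon-derived gene, and Rian and Mirg, which host small RNAs, had none.

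At H19 and Igf2, on chromosome 7, no shared peak fell in the genes or their 10 kb flanks, against 11 peaks in replicate 1. The control region window had 58, 75 and 67 in replicate 1 and none in replicate 2; these are the 3 windows printed above, centred 2.19, 2.63 and 3.69 kb upstream of the H19 start. H19, a maternally expressed noncoding RNA, had no peak at any of its 7 starts. Igf2, the paternally expressed growth factor, had 55, 76, 63 and 60 in replicate 1 at its internal starts and none at its first. The interval where shared enhancers are known was set at 4 to 40 kb downstream of the H19 start. Fully inside it lay only replicate 1 peaks, of 52 and 94. A single shared peak (96 and 47), in an intron of Mrpl23, straddled its far edge, centred 40.0 kb away.

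**Figure D4:**
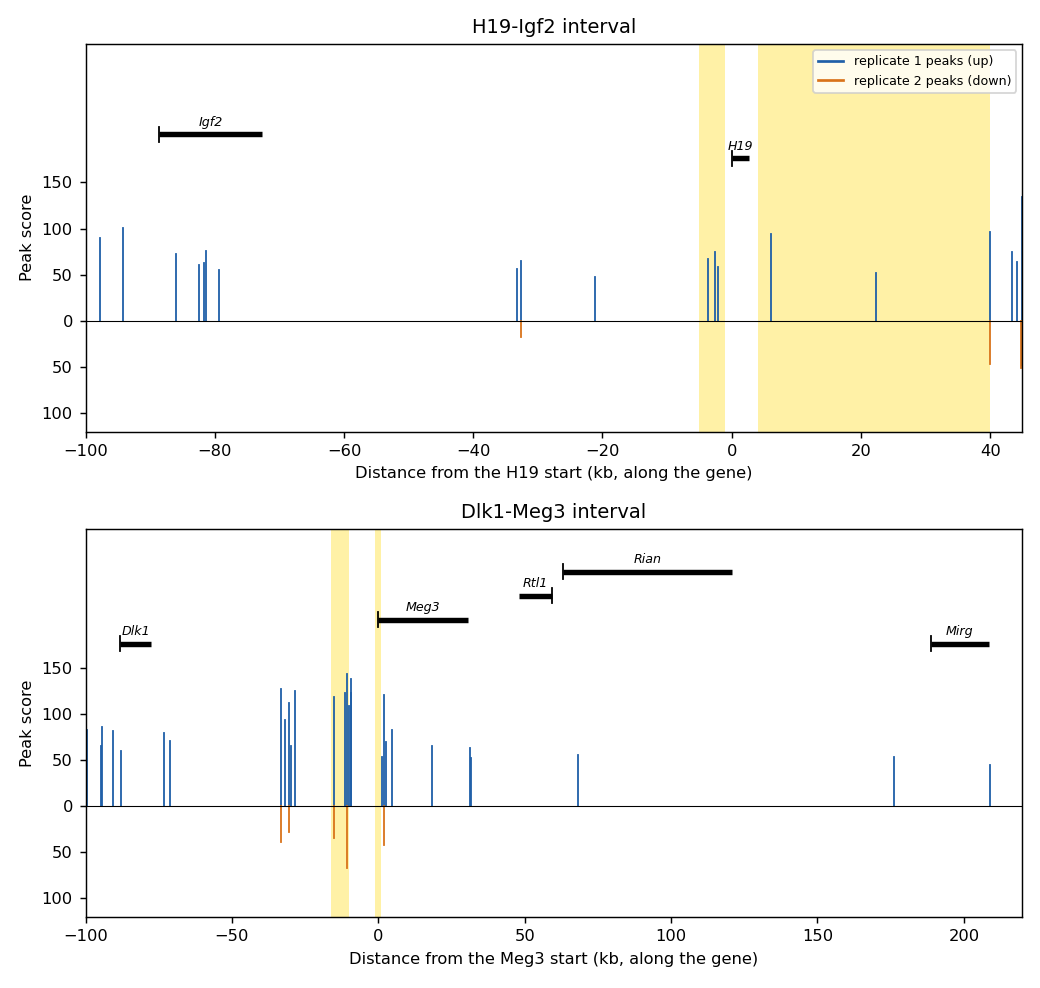
Peak scores (vertical axis; replicate 1 up in blue, replicate 2 down in orange) by distance in kb from the H19 and the Meg3 start along each gene; black bars are genes with a tick at the 5′ end, and shaded bands are the control region windows. The H19 control region holds 3 replicate 1 peaks and no replicate 2 peak, while the IG-DMR holds peaks of both lists. The wide band downstream of H19 is the enhancer interval.

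Of the smaller promoter-type regions, Impact, Inpp5f, Zrsr1 and H13 had the strongest start peaks, internal starts included. Inpp5f, an inositol phosphatase gene, had 150 and 110 at its main start and 113 and 48 at an internal start 59 bp from the peak, where its imprinted short form begins. H13, a signal peptide peptidase gene, had 142 and 84 at its start, while Mcts2, the paternally expressed retrogene in an intron of H13, had no peak. Impact, a regulator of translation on chromosome 18, had 6 shared start peaks, the highest 150 and 65, and a replicate 2 hotspot 1230 bp wide (wider than 98.0% of that list). Zrsr1, a retrogene of a splicing factor within Commd1, had 131 and 51 at 205 bp from an internal start. Its first start had 114 in replicate 1 alone, 15 bp away. The host Commd1 had 145 and 78 at its own start.

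The strongest shared start peaks of Igf2r, Peg3 with Usp29, Plagl1, Mest and Nnat scored below those of Impact, Inpp5f, Zrsr1 and H13 in both lists. Igf2r, the maternally expressed receptor that clears the Igf2 protein, had 115 and 30 at its start, and Airn, the antisense RNA that silences it, had 80 and 70 in replicate 1 alone. Within Airn the strongest shared peak, at chr17:12783356-12783505, scored 140 and 45. Peg3, a zinc finger gene, and Usp29, a deubiquitinase gene, shared a window of 96 and 20 that lies 829 bp inside Peg3. Plagl1, a zinc finger factor, had 85 and 19 at a start and a stronger shared peak of 102 and 25 in an intron. Mest, a hydrolase gene, had 70 and 21 at 940 bp upstream and 54 and 56 at its start in replicate 1 alone; 12.6% of its gene body and flanks is unsequenced in the reference. Nnat, a membrane protein gene in an intron of Blcap, had 125 and 33 at an internal start and 48 in replicate 1 alone at its main starts. Blcap had 5 shared windows within 1 kb of its own starts, among them windows of 140 and 67 and of 146 and 61.

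Peg10, derived from a retrotransposon, and Sgce, the epsilon-sarcoglycan gene, share a promoter with 59, 61, 50 and 107 in replicate 1 alone. A shared peak of 131 and 48 lay 1904 bp into Peg10, past the 1 kb limit. Rasgrf1, an exchange factor for Ras, had 64, 67 and 86 at its start in replicate 1 alone. Its upstream methylated region had the shared peak printed above (110 and 29), 30.1 kb away, with 2 TGCCGC matches. Stronger shared peaks lay in the gene body and flanks of Rasgrf1: 125 and 28 in an intron, and 140 and 41 within 1 kb of a start of Gm17944. Grb10, an adaptor of insulin signalling, had no start peak and 1 shared intronic peak (108 and 22).

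The Snrpn cluster, the mouse counterpart of the Prader-Willi region, was the emptiest. Snrpn, a splicing protein gene, Ndn and Magel2, of the MAGE family, and Mkrn3, a makorin gene, had no start peak, and their bodies and flanks held 2 replicate 1 peaks, the higher scoring 41, and none of replicate 2 in 249 kb. Ube3a, the neighbouring ubiquitin ligase gene, had 150 and 96. Zim1, a zinc finger gene of the Peg3 cluster, had none either.

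Over the control regions, 11 of 19 windows had a shared peak and 4 had replicate 1 peaks alone (H19, Airn, Peg10-Sgce and Nnat). The Meg3 promoter, Snrpn, Grb10 and Mcts2 windows had none. The windows differ in width and several are the starts counted above, so they are not a separate sample. Some pool many start windows (16 for Gnas, 11 for Plagl1). The set also includes the enhancer interval downstream of H19, called through a peak at its edge. Inpp5f reached 150 and 110 at its main start, against 113 and 48 at the start of its imprinted short form. No share over like windows of the genome was counted, so 11 of 19 has no background beside it.

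**Figure D5:**
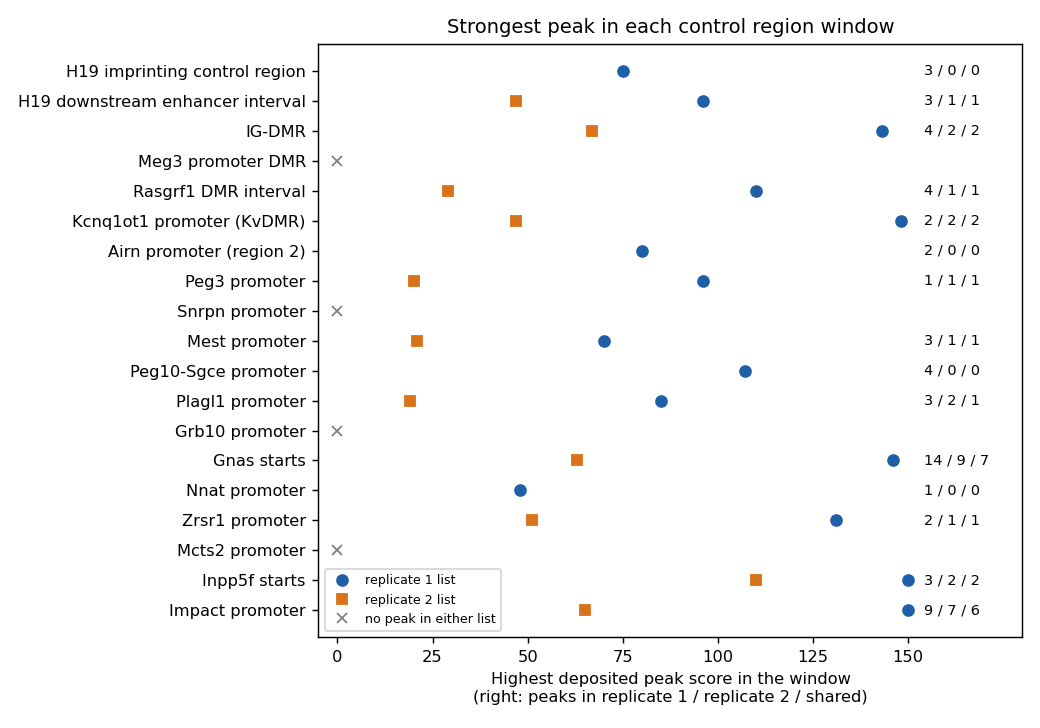
Highest deposited peak score (horizontal axis, no unit) in each of the 19 control region windows (vertical axis), circles for replicate 1 and squares for replicate 2, with the counts of peaks in replicate 1, replicate 2 and shared at the right. Crosses mark the 4 windows with no peak, and the H19 control region has a circle at 75 and no square.

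Gene bodies with 10 kb flanks came to 24 regions and 2.30 Mb, with 314 peaks in replicate 1, 89 in replicate 2 and 79 shared. That is 34.4 shared peaks per Mb, against 23.4 over the autosomes and X, where gene-poor sequence is included. The share of replicate 1 peaks that were shared was 25.2% in these regions and 26.1% overall. Median scores of the shared peaks were 121 and 36, next to 123 and 36 for all shared peaks. Their median GC was 56% and their median observed to expected CpG ratio 0.417. Over all shared peaks these were 53.3% and 0.350. TGCCGC holds a CpG, and the part of composition in the motif shares below was not tested. CTCF letters were found on either strand in 10 of the 79 windows (12.7%) and in 9.07% of all 61731 shared peaks, and TGCCGC in 8 (10.1%) and 6.01%; the H19-type letters, which TGCCGC can overlap, were in none and in 0.220%. The YY1 letters ATGGCGGC and the ETS letters ACTTCCGG had no match in the 79 and were in 0.897% and 1.97% of all. The other CTCF matches lay in introns of Usp29 (95 and 24), Airn (110 and 32), Rasgrf1 (71 and 19) and Inpp5f (115 and 62), and at H13 (110 and 35, and 132 and 57).

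A shared start peak was found at 58.2% of all coding genes and at 86.9% of those with a CpG-rich start. Of 15 genes that set and keep imprints, 12 (80%) had one. They included Dnmt1, the maintenance methyltransferase (148 and 97), Uhrf1, its partner (150 and 95), Trim28, the corepressor of KRAB zinc fingers (146 and 87), Zfp445, a zinc finger protein of imprint maintenance (144 and 72), and Ctcf (149 and 88). Zfp57 (56) and Dppa3 (79), which protects imprints in the early embryo, had replicate 1 peaks alone, and Ctcfl, the germ cell paralogue of Ctcf, had none. Among 35 neighbours and hosts of imprinted genes, 20 (57.1%) had a shared start peak, and among 15 imprinted genes of other loci 8 (53.3%) did, both near the 58.2% of all coding genes; these lists hold a few noncoding genes.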

How the data were processed

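DNase-seq peaks and hotspots of 2 biological replicates were read as the authors deposited them, on mm10 per the labels. Per the text files deposited with the samples, each list comes from the pooled libraries of 1 biological replicate. The peak lists hold a deposited whole-number score per 150 bp window, and the hotspot lists a deposited −log10 q value with a ceiling of 100. The sources used here do not give the caller, its settings or the depth, so intervals were left out. Chromosome ends of the lists lay within the reference lengths on 21 chromosomes. Repeated entries and those off the main chromosomes were dropped, 587 in replicate 1 and 126 in replicate 2.

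Genes came from GENCODE M21 and sequence from GRCm38.p6. A peak was shared when a replicate 1 window overlapped a replicate 2 peak by at least 1 bp, and belonged to a start within 1 kb. Motifs were exact matches on both strands of the whole window. No test was made. Members, lists and windows were chosen with earlier results of these data known; control region windows follow general knowledge of the loci. Every member was named, with neighbours that share or host a start. The shared peaks named included the strongest of each cluster, all with a CTCF match and most of those in a control region. The values of some list genes are not reported here. Python 3.11.15, numpy 2.4.6, pysam 0.24.0 and matplotlib 3.10.9 were used, and the scripts were tested on simulated data. Alternatives were each list alone, lists of equal length, a rank limit, other overlaps, windows and flanks, and a hotspot limit of −log10 q of at least 2.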

Additional observations from a re-analysis of the deposited data

How the results depend on the processing

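No paired analysis was possible because the results come from no test. Depth is unknown, so a missing peak in the shorter list cannot be told from one below its limit. With one or the other list alone, members with a start peak numbered 14 to 23, members with a start hotspot 14 to 23, and peaks in the gene bodies and flanks 89 to 314, against 14, 14 and 79 shared; control region windows numbered 11 to 15, against 11. Above the median mean rank, 8 members, 40 peaks in the regions and 7 control region windows were left. Lists of equal length gave 10 members, 62 peaks in the regions and 7 control region windows. Under that setting 28.6% of the coding members had a shared start peak, against 54.9% of all coding genes. A start window of 500 bp left 10 members. Counting only the 5′ start of each gene model left 9 members for peaks and 9 for hotspots. Flanks of 50 kb raised the peaks to 142. The share of coding members lay below that of all coding genes under every setting in which a peak of replicate 2 was needed, from 21.4% against 51.1% above the median rank to 50% against 61.9% in a window of 2500 bp.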
